A study of Mus musculus with 10 samples.

Results

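The measurements below concern how the transcriptional answer to glucagon differed in primary mouse hepatocytes depleted of the lysine acetyltransferase KAT2B. For each gene the glucagon response, the log2 intensity with glucagon minus that with phosphate-buffered saline (PBS), was taken in cells with a hairpin against Kat2b (shKAT2B) and in cells with a non-specific hairpin (shNS), and the second was subtracted from the first. This response difference is negative where an induction was smaller in shKAT2B cells. It rests on 7 of the 10 libraries of the series: 2 libraries of shKAT2B with glucagon, 1 of shKAT2B with PBS, 2 of shNS with glucagon and 2 of shNS with PBS. The other 3 libraries carried a hairpin against Wdr5 (shWDR5, 2 with glucagon and 1 with PBS) and served to choose glucagon-responsive genes without using any library of the comparison. All groups were hepatocytes of male C57BL6/J mice aged 10 weeks that had received an adenovirus with one of the hairpins, at 2 to 4 plaque-forming units per cell, 72 hours before. Glucagon was given at 100 nM, and PBS in its place, for 90 minutes. Each library pooled RNA of 3 dishes, and the labels do not say whether libraries of a group came from separate animals, so the p-values measure only the spread between these libraries. With 1 hairpin per target, an effect of KAT2B loss and another effect of that hairpin cannot be told apart.

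Glucagon signals through a G protein-coupled receptor that raises cyclic AMP in hepatocytes. Protein kinase A then phosphorylates the transcription factor CREB, whose coactivators CRTC2 and CBP/p300 bind at cyclic AMP response elements and switch on a first wave of genes within minutes to hours, among them transcription factors and the enzymes of fasting glucose production. KAT2B, also called PCAF, is an acetyltransferase of the SAGA and ATAC complexes and acetylates histone H3, and WDR5 is a scaffold of histone H3 lysine 4 methyltransferase complexes.

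The results turn on Nr4a1, which encodes the orphan nuclear receptor NUR77, its relative Nr4a2, which encodes NURR1, and Efna1, which encodes ephrin-A1, a membrane-anchored ligand of EphA receptors. Their RefSeq promoters (build GRCm38.p6) are shown for the 250 bases before the annotated start, 5′ to 3′ along the gene, with copies of the CREB half-site TGACG or its reverse complement CGTCA in capitals. The Nr4a1 stretch (chr15:101266596-101266845, plus strand) held 4 half-sites, beginning 233, 213, 69 and 40 bases before the start, and the Nr4a2 stretch (chr2:57124004-57124253, minus strand) held 4, beginning 200, 144, 123 and 111 bases before it. The Efna1 stretch (chr3:89280952-89281201, minus strand) held 0.
Nr4a1: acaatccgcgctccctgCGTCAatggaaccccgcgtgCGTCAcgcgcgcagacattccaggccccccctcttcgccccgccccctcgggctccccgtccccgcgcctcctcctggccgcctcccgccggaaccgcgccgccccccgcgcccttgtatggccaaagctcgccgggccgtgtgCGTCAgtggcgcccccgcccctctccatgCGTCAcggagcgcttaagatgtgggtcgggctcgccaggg
Nr4a2: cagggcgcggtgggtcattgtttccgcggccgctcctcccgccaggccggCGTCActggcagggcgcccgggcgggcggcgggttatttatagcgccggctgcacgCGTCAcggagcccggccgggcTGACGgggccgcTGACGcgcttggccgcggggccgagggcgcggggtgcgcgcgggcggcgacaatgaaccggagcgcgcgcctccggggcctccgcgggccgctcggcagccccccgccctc
Efna1: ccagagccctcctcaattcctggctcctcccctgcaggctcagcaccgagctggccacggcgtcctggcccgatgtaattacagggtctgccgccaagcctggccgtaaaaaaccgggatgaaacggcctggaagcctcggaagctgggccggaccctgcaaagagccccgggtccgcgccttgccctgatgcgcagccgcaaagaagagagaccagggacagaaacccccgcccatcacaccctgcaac
Windows of 300 bases, reaching 50 bases past the start, were searched on both strands for all genes. A half-site lay in 20.8% of 32851 windows, at least 4 lay in 0.231%, and the full 8-letter palindrome TGACGTCA, which contains both forms of the half-site overlapping, lay in 1.79%. These letters are a description of sequence and not evidence of binding.

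The Kat2b transcript itself had log2 intensities of 6.92 and 6.58 with glucagon and 6.60 with PBS in shKAT2B cells, against 9.41 and 9.40 with glucagon and 9.40 and 9.42 with PBS in shNS cells. Its level was thus 0.143 times that of shNS cells in PBS and 0.159 times under glucagon, with no overlap between the hairpins. Hepatocyte identity genes had a median log2 level of 11.04 to 11.06 in the shKAT2B libraries and 11.26 to 11.71 in the shNS libraries, above the 9.39 to 9.52 of all 11479 genes tested in the same 7 libraries. A second structure ran through the data. A fit of hairpin and treatment without their interaction left residuals whose first component held 78% of the residual variance. These residuals also hold any response difference. The sign of the component split the libraries into 2 sets, which the labels do not name, and the shWDR5 PBS library had the weakest score, 0.058. The first set held the A libraries of shKAT2B with glucagon, shWDR5 with glucagon, shNS with glucagon and shNS with PBS. The second held the B libraries of those 4 groups and the only PBS libraries of shKAT2B and shWDR5, although those carry the letter A. The shKAT2B and shWDR5 responses over all libraries therefore set glucagon libraries of both sets against a PBS library of the second set alone, while the shNS response is balanced. Results are therefore given over all 7 libraries, with library set as a term in the fit, and within the second set, where each group has 1 library and no test is possible.

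Over all libraries no gene passed for the response difference: limma's moderated test called 0 of 11479 genes at an adjusted p below 0.05 (0.0% lower and 0.0% higher in shKAT2B), and 35 genes had an unadjusted p below 0.05, where 574 would if p-values were spread evenly. The smallest adjusted p was 0.999, and the median standard error of a response difference was 0.22. The median standard error was 0.14 in a fit with library set as a term. There 2 genes passed, Efna1 and Nr4a1, both with a smaller response in shKAT2B cells (0.0174% of genes lower and 0.0% higher), and 278 genes had an unadjusted p below 0.05, again fewer than 574.

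Nr4a1 had log2 intensities of 10.90 and 10.87 with glucagon and 8.28 with PBS in shKAT2B cells, against 11.69 and 11.73 with glucagon and 8.12 and 8.07 with PBS in shNS cells. Glucagon raised it in both, by 6.08-fold in shKAT2B cells (limma adjusted p = 0.00143) and by 12.3-fold in shNS cells (limma adjusted p = 3.66e-05). The shKAT2B glucagon libraries lay below both shNS glucagon libraries, and the PBS library lay slightly above both of its counterparts. The response difference was -1.01 ± 0.16 (standard error, 95% interval -1.38 to -0.64, limma adjusted p = 0.999), or 2.01-fold smaller. It was -1.04 ± 0.12 with library set as a term (limma adjusted p = 0.015) and -1.07 within the second set.

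Efna1 had log2 intensities of 10.54 and 10.52 with glucagon and 10.00 with PBS in shKAT2B cells, against 11.46 and 11.29 with glucagon and 9.76 and 9.67 with PBS in shNS cells. Its induction was 1.44-fold in shKAT2B cells, which did not pass (limma adjusted p = 0.836), and 3.16-fold in shNS cells, which did (limma adjusted p = 0.00101). With library set as a term the induction passed in shKAT2B cells too (log2 0.50 ± 0.09, limma adjusted p = 0.0313). As for Nr4a1, the groups did not overlap in either treatment: shKAT2B was lower under glucagon and higher in PBS. Among all genes tested, 19.1% were lower without overlap under glucagon and 32.0% were higher without overlap in PBS. The response difference was -1.13 ± 0.15 (95% interval -1.49 to -0.77, limma adjusted p = 0.999). It was -1.16 ± 0.12 with library set as a term (limma adjusted p = 0.00771) and -1.1 within the second set.

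**Figure D1:**
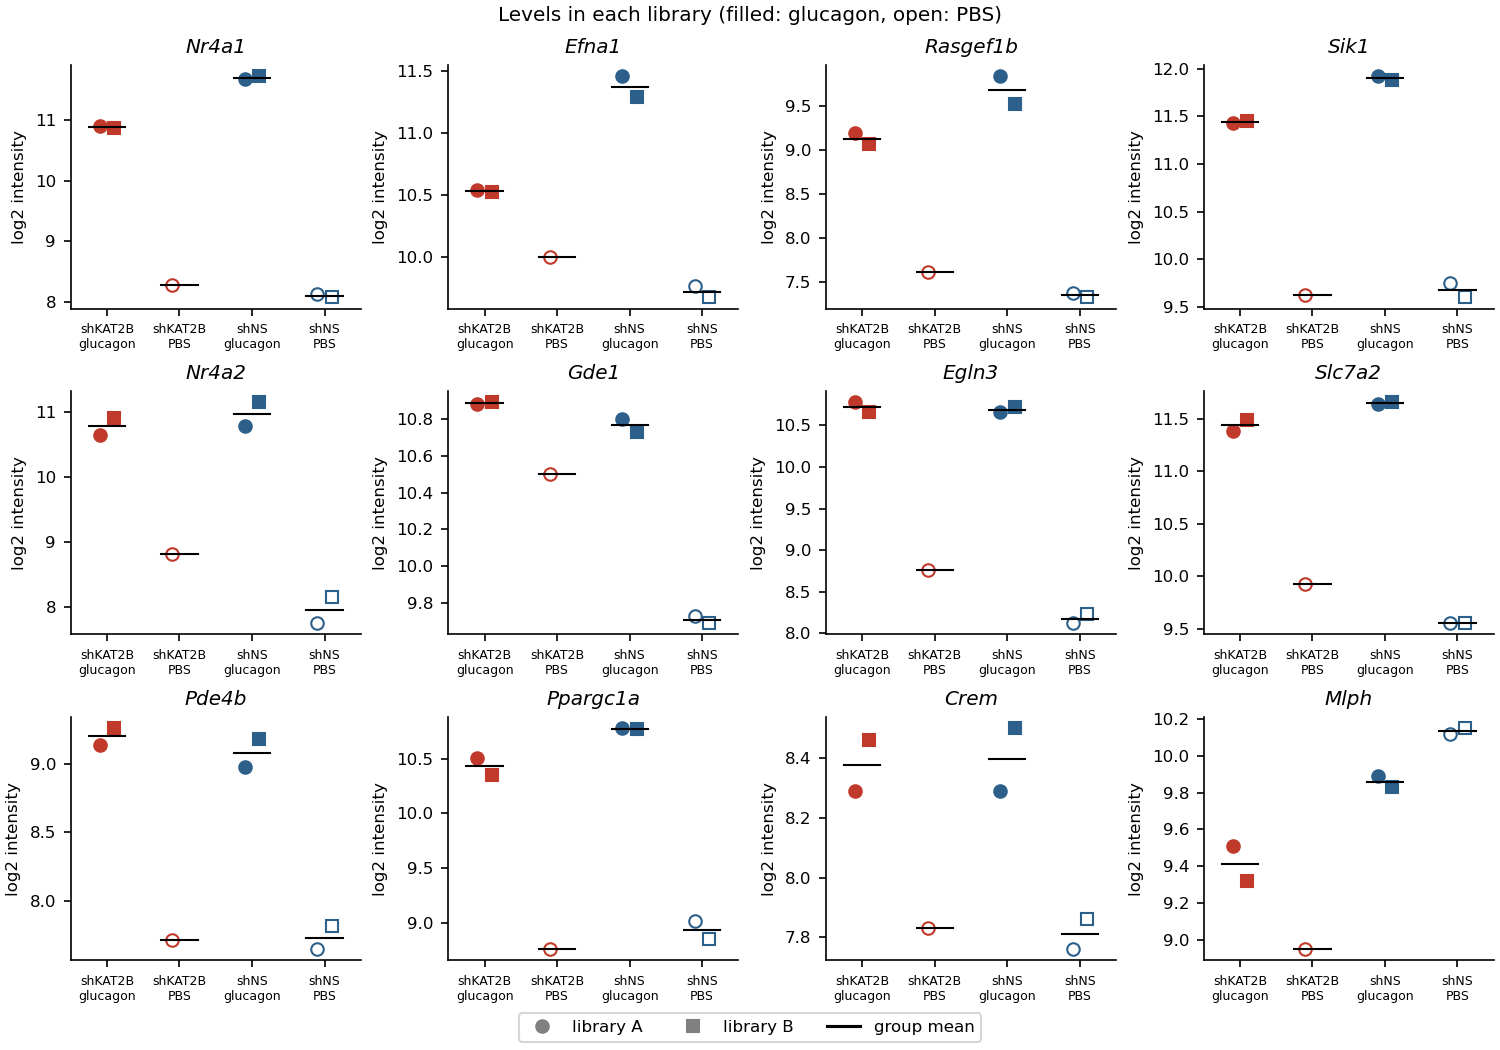
Log2 intensity of 12 genes in each of the 7 libraries, with shKAT2B in red and shNS in blue, glucagon filled and PBS open, A libraries as circles and B libraries as squares, and group means as lines. The vertical axes differ between panels and do not start at 0. Nr4a1 and Efna1 show lower shKAT2B than shNS points under glucagon, Gde1 and Egln3 a higher shKAT2B PBS point, and Pde4b and Crem overlapping points.

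The other NR4A receptors also had negative response differences, which did not pass. Nr4a2 had 10.65 and 10.91 with glucagon and 8.81 with PBS in shKAT2B cells, against 10.79 and 11.15 with glucagon and 7.75 and 8.15 with PBS in shNS cells. Here the glucagon libraries overlapped and the PBS libraries did not, so that the response difference of -1.05 ± 0.35 came with a level in PBS 1.82 times that of shNS cells (limma adjusted p = 0.248). With library set as a term that PBS level was higher by 0.67 on the log2 scale (limma adjusted p = 0.000817). Nr4a3, which encodes NOR1, had 8.68 and 8.38 with glucagon and 6.23 with PBS in shKAT2B cells, against 9.19 and 9.16 with glucagon and 6.44 and 5.93 with PBS in shNS cells. Its difference lay under glucagon, where the groups did not overlap, and the response difference was -0.69 ± 0.29 over all libraries, -1.08 within the second set and -0.44 without the B library of shNS with PBS.

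Glucagon-responsive genes were chosen by a change of at least 1 on the log2 scale in the shWDR5 libraries, in either direction. There were 29, of which 27 were raised and 2 were lowered. Counted in the direction of the shWDR5 response, 13 of the 29 responded less in shKAT2B than in shNS cells by at least 0.5, 15 lay within 0.5, and 1, the acute phase gene Saa3, responded more. Among all genes tested, 0.601% responded less and 1.66% more by that measure. The median response difference of the 29 was -0.42, beside 0.06 for all genes, and 24 of the 29 were below 0. Within the second library set, with the direction still that over all shWDR5 libraries, 16 of the 29 responded less, 13 lay within 0.5 and 0 responded more, beside 0.488% less and 0.244% more among all genes, with medians of -0.59 for the 29 and 0.0 for all. Neither count carries a test.

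Saa3 differed strongly between the library sets, which were themselves defined from residuals that include its values. It had 8.43 and 10.31 with glucagon and 10.32 with PBS in shKAT2B cells, against 8.19 and 11.31 with glucagon and 8.05 and 11.53 with PBS in shNS cells. Its spread between A and B libraries of a group exceeded any treatment difference, and it was chosen as lowered on a shWDR5 response of -1.18 over all libraries that was 0.04 within the second set. Its response difference, shKAT2B minus shNS, was -0.91 over all libraries and 0.21 within the second set.

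**Figure D2:**
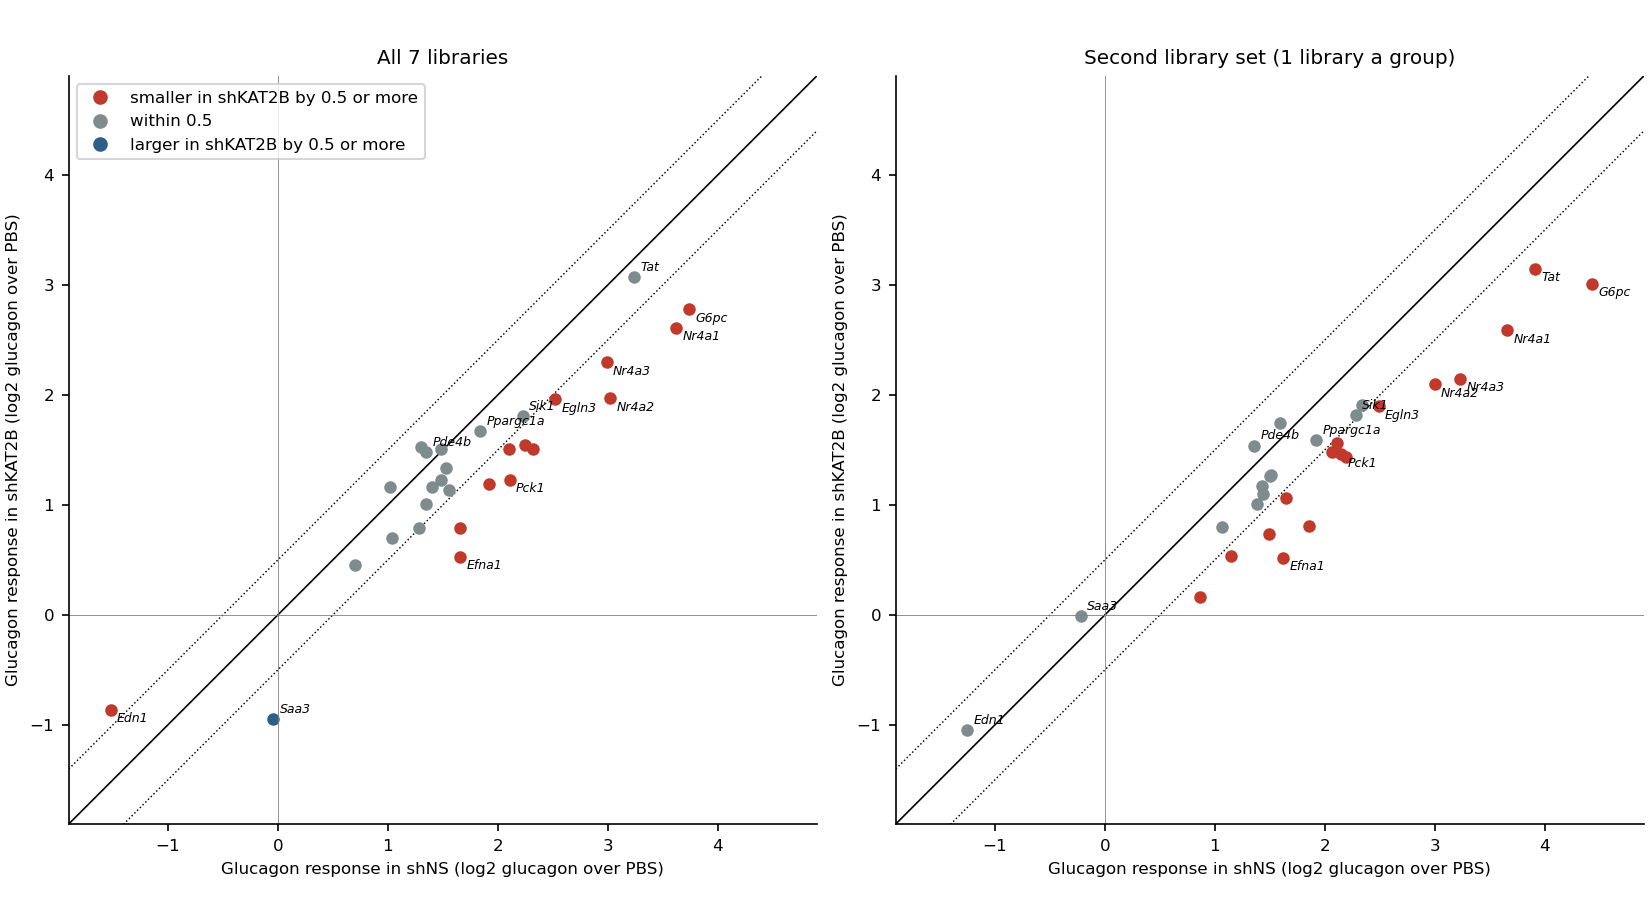
Glucagon response (log2 glucagon over PBS) in shKAT2B, on the vertical axis, against that in shNS for the 29 glucagon-responsive genes, over all 7 libraries on the left and within the second library set on the right. The solid line marks equal responses, the dotted lines a difference of 0.5, and names are given for genes described in the text. Most points lie below the solid line, with 13 genes smaller on the left and 16 on the right.

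The count depended on how responsive genes were chosen. In the second library set alone, where the shWDR5 response is not mixed between the sets, 34 genes changed by at least 1, of which 15 responded less in shKAT2B cells, 19 lay within 0.5 and 0 responded more, with a median of -0.46 and 32 of 34 below 0. Without the B library of shWDR5 with glucagon, which leaves its libraries of different sets against each other, 78 genes were chosen and 10 of them responded less, and without the A library 18 of 34 did. With a change of at least 0.58 in the shWDR5 arm, 26 of 128 genes responded less and 19 more. With a change of at least 1 in shNS, a choice that favours smaller responses in shKAT2B, 22 of 40 responded less, and with the same change in shKAT2B, a choice that favours larger ones, 10 of 28 did.

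The size of a response depends on both ends, and the 27 raised genes differed more in the level reached under glucagon than in the PBS level. There the median difference between shKAT2B and shNS was -0.45, beside 0.02 for all genes, and 23 of 27 were below 0. The shKAT2B libraries lay below both shNS libraries for 18 of the 27 and above both for 1, where 19.1% of all genes lay below and 22.9% above. Limma called 2 of the 27 lower, Nr4a1 (log2 difference -0.83, adjusted p = 0.0212) and Efna1 (-0.85, adjusted p = 0.0185), beside 0.897% of all genes. In the fit with library set, 19 were called lower and 1 higher, beside 13.7% and 13.6% of all genes. These comparisons do not use the lone PBS library, and each glucagon group holds 1 library of each set. Levels of cell type markers also differed under glucagon: in the fit with library set, 12 of 18 hepatocyte identity genes were called lower in shKAT2B cells (median -0.40), and 6 of 16 Kupffer cell and leukocyte markers were called higher (median 0.29).

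In PBS the same 27 genes had a median difference of 0.05, beside -0.02 for all genes, and of 0.19 within the second set, where the lone shKAT2B PBS library lies, beside 0.01 for all genes. The median under glucagon within that set was -0.42. The shKAT2B library lay above both shNS libraries for 11 and below both for 7, where 32.0% of all genes lay above and 37.6% below. The fit with library set called 5 of the 27 higher and 1 lower, beside 7.64% and 10.8% of all genes. Of the 12 raised genes that responded less by at least 0.5, 10 had a higher level in PBS in shKAT2B cells than the shNS mean, with a median difference of 0.28, and 11 had a lower level under glucagon, with a median difference of -0.6. Because the 12 were picked for that difference, these values only describe which end it came from.

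**Figure D3:**
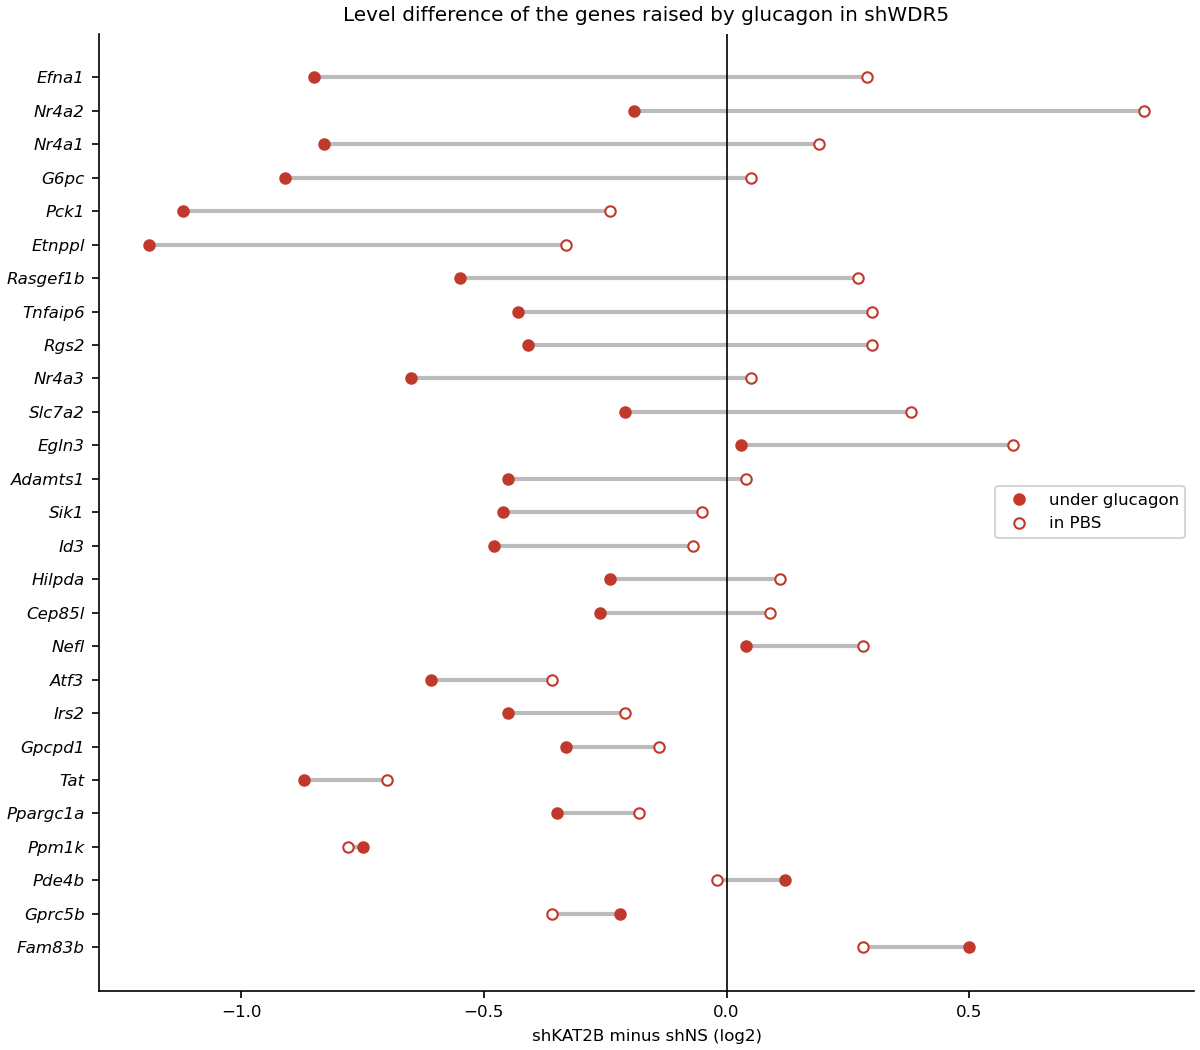
Level difference between shKAT2B and shNS (log2) for the 27 genes raised by glucagon in shWDR5 cells, under glucagon (filled) and in PBS (open), with genes in order of the response difference. Efna1 and Nr4a1 were lower under glucagon, Egln3 and Nr4a2 differed mainly in PBS, and Ppm1k and Tat were lower in both treatments.

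Some smaller responses came with a higher level in PBS. Egln3, a prolyl hydroxylase that marks HIF for degradation, had 10.78 and 10.66 with glucagon and 8.76 with PBS in shKAT2B cells, against 10.66 and 10.72 with glucagon and 8.12 and 8.23 with PBS in shNS cells. Glucagon brought it to overlapping levels, while its PBS level in shKAT2B cells was 1.5 times that in shNS cells (limma adjusted p = 0.197). With library set as a term that PBS level was higher by 0.54 on the log2 scale (limma adjusted p = 0.012). Gde1, a glycerophosphodiester phosphodiesterase, had 10.88 and 10.89 with glucagon and 10.50 with PBS in shKAT2B cells, against 10.80 and 10.73 with glucagon and 9.73 and 9.69 with PBS in shNS cells. Its level was higher in shKAT2B cells in both treatments, most in PBS (1.73 times, limma adjusted p = 0.041), and its response difference was -0.67 ± 0.13 (limma adjusted p = 0.999, and 0.0918 with library set as a term).

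Slc7a2, a transporter of arginine and lysine, differed at both ends. It had 11.39 and 11.49 with glucagon and 9.93 with PBS in shKAT2B cells, against 11.64 and 11.66 with glucagon and 9.55 and 9.55 with PBS in shNS cells. Glucagon raised it 2.85-fold in shKAT2B cells (limma adjusted p = 0.00381) and 4.29-fold in shNS cells (limma adjusted p = 0.00013), and the response difference was -0.59 ± 0.12 (limma adjusted p = 0.999). Rasgef1b, an exchange factor for small GTPases, had 9.19 and 9.06 with glucagon and 7.62 with PBS in shKAT2B cells, against 9.83 and 9.52 with glucagon and 7.38 and 7.33 with PBS in shNS cells. Like Slc7a2 it was lower under glucagon and higher in PBS in shKAT2B cells with no overlap, with a response difference of -0.82 ± 0.22.

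Other genes with the smallest unadjusted p in the negative direction, none of which passed over all libraries, were Nfil3, a repressor of the bZIP family (-0.70 ± 0.17), Slc16a10, a transporter of aromatic amino acids (-0.93 ± 0.31), and the polo-like kinase Plk3 (-0.80 ± 0.29). Their glucagon responses were 0.41, 0.34 and -0.09 in shKAT2B cells, against 1.1, 1.26 and 0.71 in shNS cells. All 3 had lower glucagon levels in shKAT2B cells, by 0.56 for Nfil3, 0.41 for Slc16a10 and 0.70 for Plk3 on the log2 scale. The response difference of Plk3 was -0.53 without the A library of shKAT2B with glucagon and -1.07 without the B library.

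Other inductions differed less. Pde4b, a phosphodiesterase that degrades cyclic AMP, had 9.14 and 9.26 with glucagon and 7.72 with PBS in shKAT2B cells, against 8.98 and 9.18 with glucagon and 7.65 and 7.82 with PBS in shNS cells. The groups overlapped in both treatments, the induction passed with both hairpins (2.79-fold in shKAT2B, limma adjusted p = 0.0457, and 2.54-fold in shNS, limma adjusted p = 0.0105), and the response difference was 0.14 ± 0.20 with a 95% interval from -0.33 to 0.60. Crem, which encodes cyclic AMP-responsive activators and repressors including the inducible repressor ICER, had 8.29 and 8.46 with glucagon and 7.83 with PBS in shKAT2B cells, against 8.29 and 8.50 with glucagon and 7.76 and 7.86 with PBS in shNS cells. Its levels lay on top of each other, with a response difference of -0.04 ± 0.24 that was 0.06 with library set as a term. That standard error is large beside the small rise of Crem with glucagon, so the value does not establish that its response was unchanged.

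Ppargc1a, which encodes the coactivator PGC-1alpha, rose with both hairpins. It had 10.51 and 10.35 with glucagon and 8.76 with PBS in shKAT2B cells, against 10.78 and 10.77 with glucagon and 9.02 and 8.85 with PBS in shNS cells, and was lower in shKAT2B cells in both treatments with no overlap. The induction was 3.18-fold in shKAT2B cells (limma adjusted p = 0.0109) and 3.58-fold in shNS cells (limma adjusted p = 0.00101), and the response difference was -0.17 ± 0.17 with a 95% interval from -0.56 to 0.22. Sik1, a kinase that phosphorylates CRTC coactivators, had 11.43 and 11.45 with glucagon and 9.63 with PBS in shKAT2B cells, against 11.92 and 11.88 with glucagon and 9.75 and 9.60 with PBS in shNS cells. Here the PBS levels overlapped and the glucagon levels did not, giving a response difference of -0.42 ± 0.14.

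The fasting enzymes varied widely between libraries. G6pc, which encodes the catalytic subunit of glucose-6-phosphatase, had 8.41 and 8.87 with glucagon and 5.86 with PBS in shKAT2B cells, against 9.11 and 9.99 with glucagon and 6.07 and 5.56 with PBS in shNS cells. Pck1, the cytosolic phosphoenolpyruvate carboxykinase, had 7.96 and 8.43 with glucagon and 6.97 with PBS in shKAT2B cells, against 9.13 and 9.50 with glucagon and 7.07 and 7.35 with PBS in shNS cells. Both lay lower in shKAT2B cells under glucagon with no overlap. With library set as a term that level difference was -1.12 ± 0.23 for Pck1 (limma adjusted p = 0.00452) and -0.91 ± 0.32 for G6pc (limma adjusted p = 0.0546). The response differences over all libraries had wide intervals, from -2.85 to 0.94 around -0.96 for G6pc and from -2.61 to 0.85 around -0.88 for Pck1. They were -0.67 ± 0.52 for G6pc and -0.55 ± 0.38 for Pck1 with library set as a term, where neither passed, and -1.42 and -0.69 within the second set. Without the B library of shNS with glucagon the value for G6pc was -0.52. Tat, the tyrosine aminotransferase, was lower in shKAT2B cells in both treatments, with 10.39 and 10.55 under glucagon and 7.40 with PBS, against 11.04 and 11.64 with glucagon and 8.47 and 7.73 with PBS in shNS cells. Its response difference was -0.17 ± 0.50 over all libraries, -0.09 ± 0.39 with library set as a term and -0.76 within the second set. It was -0.54 without the A library of shNS with PBS and 0.20 without the B library, so its size depended on single libraries.

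No response was called larger in shKAT2B cells, with or without the library set as a term. Of the 10 genes with the smallest unadjusted p in the positive direction, Mlph came first. It encodes melanophilin, which links RAB27A to myosin Va, and had 9.51 and 9.32 with glucagon and 8.95 with PBS in shKAT2B cells, against 9.89 and 9.83 with glucagon and 10.12 and 10.15 with PBS in shNS cells. Both shKAT2B glucagon libraries lay above the shKAT2B PBS library and both shNS glucagon libraries lay below the shNS PBS libraries. The level was lower in shKAT2B cells in both treatments, and the response difference was 0.74 ± 0.16 (limma adjusted p = 0.999, and 0.157 with library set as a term).

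Afp, the fetal liver gene for alpha-fetoprotein, had 11.20 and 10.66 with glucagon and 9.85 with PBS in shKAT2B cells, against 11.71 and 11.79 with glucagon and 11.51 and 11.35 with PBS in shNS cells. Its PBS level in shKAT2B cells stood far below the shNS libraries (log2 difference -1.58), its glucagon level less far (-0.82), and the response difference was 0.76 ± 0.27 over all libraries and 0.37 within the second set. The other 8 of these genes were Zfp81, Zc3hav1l, Raph1, Zfp74, Bicra, Mtmr10, Msln and Auts2, with response differences between 0.32 and 0.53. All 10 had a lower PBS level in shKAT2B than in shNS cells, so each of these values rests on the 1 PBS library.

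By gene group, the CREB and cyclic AMP immediate targets had the lowest median response difference within the second library set among the 26 lists examined. Of 23 members tested, 18 were below 0, 7 of them by at least 0.5, beside 4313 and 134 of 11479 genes. The median was -0.25 over all libraries and -0.39 within the second set, beside 0.05 and 0.01 for all genes. With library set as a term, glucagon raised 12 members and lowered 0 in shKAT2B cells, against 15 raised and 3 lowered in shNS cells, where 0.488% of all genes were raised and 0.148% lowered in shKAT2B cells and 1.24% and 0.714% in shNS cells. Without that term 6 members were raised in shKAT2B cells and 9 in shNS cells, beside 0.061% and 0.192% of all genes. The median level difference of the list between shKAT2B and shNS was -0.22 under glucagon and -0.03 in PBS. The higher standard error in shKAT2B, which has 1 PBS library, favours fewer calls there, so the counts of the hairpins are not a test of their difference.

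Feedback regulators of cyclic AMP signalling, a list of phosphodiesterases, regulators of G protein signalling and related genes, had a median response difference of 0.01. Of its 17 members 7 were below 0, near the share of all genes (4313 of 11479). In the fit with library set as a term 5 were raised in shKAT2B cells and 5 in shNS cells, beside 0.488% and 1.24% of all genes. Its member Rgs2, which limits signalling by Gq-coupled receptors, had a response difference of -0.71 ± 0.40 over all libraries and -0.43 within the second set. The PBS values of Rgs2 were low, 6.28 in shKAT2B cells and 5.94 and 6.02 in shNS cells, where the median of all features was 8.14 to 8.15. The genes of the signalling chain itself, the glucagon receptor, adenylyl cyclases and protein kinase A subunits, had a median response difference of 0.04, and 0 of 12 passed. CREB, its coactivators and the acetyltransferases had a median of 0.14 over all libraries and 0.04 within the second set.

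Gluconeogenesis enzymes and regulators had a median response difference of -0.09 over all libraries and -0.14 within the second set. Over all libraries 9 of 15 members were below 0, beside 4313 of 11479 genes. With library set as a term, glucagon raised 3 of the 15 in shKAT2B cells and 6 in shNS cells, beside 0.488% and 1.24% of all genes. Under glucagon the list's median level was lower in shKAT2B cells by 0.28 on the log2 scale, with 7 members called lower and 1 higher in that fit, beside 13.7% and 13.6% of all genes. For amino acid transporters the same fit called 1 of 20 raised in shKAT2B cells and 4 in shNS cells, against the same shares of all genes, while their median response difference was -0.09 over all libraries and 0.03 within the second set. Circadian clock genes had 0 of 17 raised in shKAT2B cells and 3 in shNS cells, against those shares too, with a median response difference of 0.04, and -0.06 within the second set.

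YAP and SRF targets, genes of cell shape, cytoskeleton and growth, had the highest median response difference of the lists in both views, 0.32 over all libraries and 0.17 within the second set, with 2 of 20 members below 0, beside 4313 of 11479 genes over all libraries. Their median response was 0.07 in shKAT2B cells, with 8 of 20 below 0, and -0.19 in shNS cells, with 15 of 20 below 0. Within the second set the medians were -0.03 in shKAT2B cells and -0.19 in shNS cells. The list's median level difference between shKAT2B and shNS was -0.21 in PBS, with 16 of 20 members below 0, and 0.15 under glucagon. Within the second set it was -0.06 in PBS and 0.1 under glucagon. The PBS values rest on the lone shKAT2B PBS library. In the fit with library set as a term, 3 of the 20 fell in shKAT2B cells and 8 in shNS cells, beside 0.148% and 0.714% of all genes. Edn1, the vasoconstrictor endothelin-1, had 9.04 and 8.66 with glucagon and 9.71 with PBS in shKAT2B cells, against 7.94 and 8.35 with glucagon and 9.72 and 9.60 with PBS in shNS cells. It started from a similar level and was higher, with no overlap, under glucagon in shKAT2B cells, with a response difference of 0.66 ± 0.32 over all libraries and 0.20 within the second set. Ccn1, a matricellular protein gene and YAP target, had responses of -0.75 in shKAT2B cells and -1.34 in shNS cells, and a response difference of 0.59 ± 0.34, and 0.29 within the second set.

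In the second set alone, 34 genes were lowered by at least 0.58 in shWDR5 cells, and 28 of them were lowered less in shKAT2B than in shNS cells, with a median difference in the direction of the shWDR5 response of -0.17. Among all 6560 genes below 0 in the shWDR5 libraries of that set, 3496 were below 0 by this measure, with a median of -0.01. Of the 34, 4 responded less by at least 0.5, beside 0.29% of the 6560. Of 62 genes raised by as much, 25 responded less by at least 0.5 and 52 of 62 lay below 0, with a median of -0.39. Among all 4545 genes above 0 there, 0.99% responded less by at least 0.5 and 2108 lay below 0, with a median of 0.01. This choice was made after seeing the data. Immediate early factors of the AP-1 and EGR families had a median response of -0.17 in shKAT2B cells and -0.10 in shNS cells. In shNS cells 17 of 25 were below 0, beside 6063 of 11479 genes. Their median response difference was -0.09, with 17 of 25 below 0, beside 4313 of 11479 genes. Egr1, a zinc finger factor of that group, fell under glucagon in both hairpins in the fit with library set as a term (-0.97 in shKAT2B cells and -0.76 in shNS cells over all libraries), with a response difference of -0.21 ± 0.18.

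**Figure D4:**
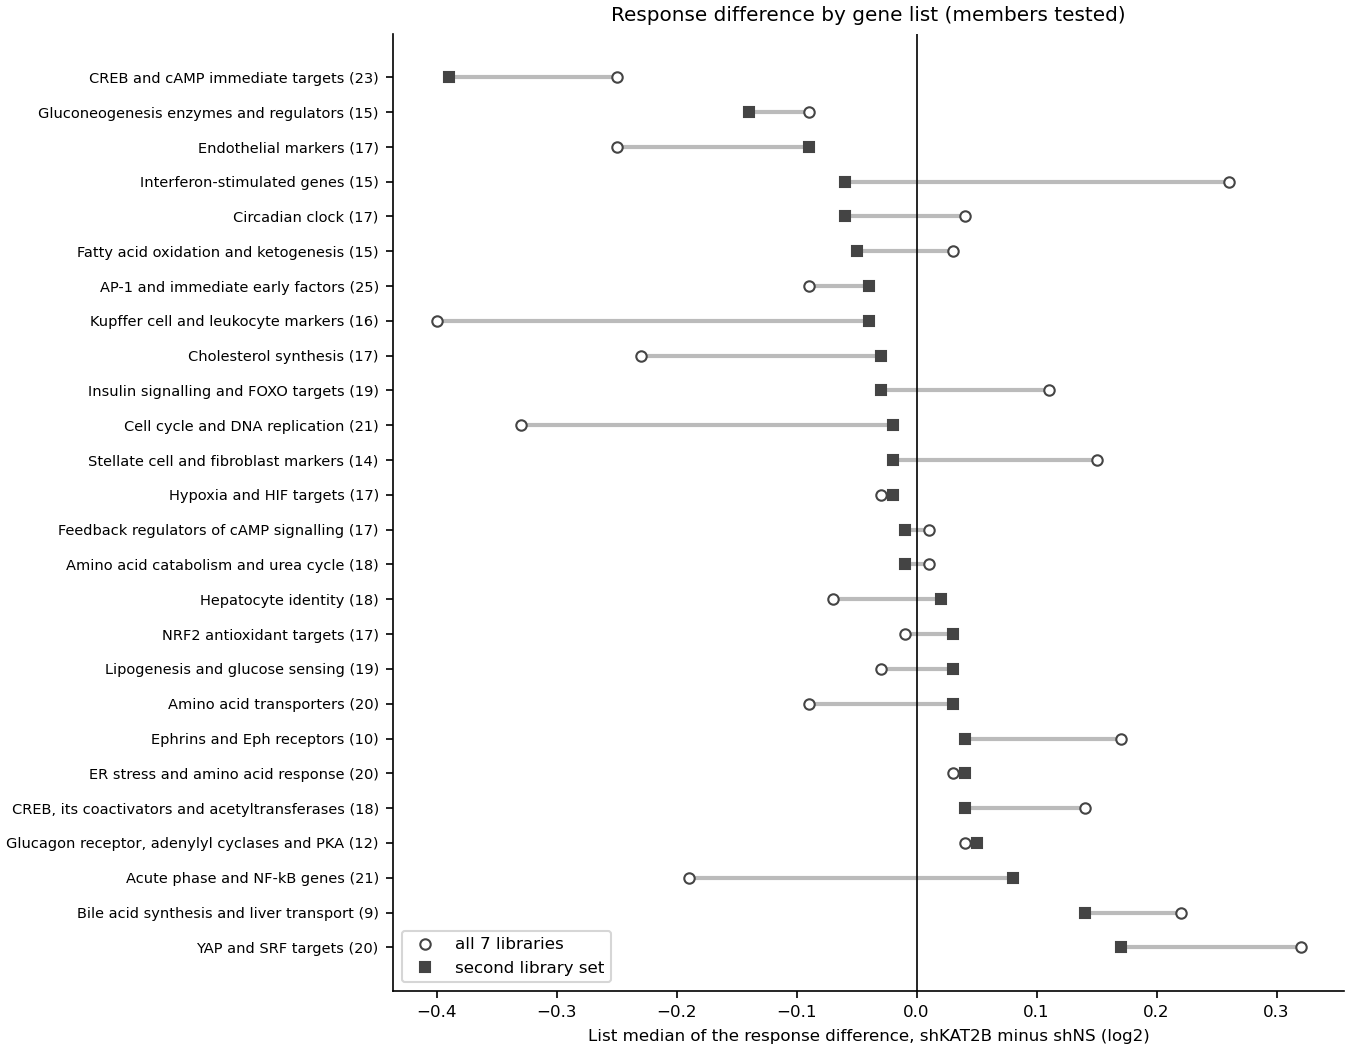
Median response difference, shKAT2B minus shNS (log2), of each of 26 gene lists over all 7 libraries (open circles) and within the second library set (squares), with the number of members tested in brackets. CREB and cyclic AMP immediate targets lie lowest and YAP and SRF targets highest within the second set. Kupffer cell, cell cycle, cholesterol and interferon lists lie near 0 there and away from 0 over all libraries.

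Several lists had a clear median over all libraries that was near 0 within the second set. Kupffer cell and leukocyte markers had a median of -0.40 over all libraries and -0.04 within the second set. Cell cycle genes had -0.33 and -0.02, cholesterol synthesis genes -0.23 and -0.03, and interferon-stimulated genes 0.26 and -0.06. Their levels moved with the library set: the 16 Kupffer cell and leukocyte markers tested had median log2 levels of 8.59 and 9.41 with glucagon and 9.41 with PBS in shKAT2B cells, against 8.40 and 9.08 with glucagon and 8.38 and 8.86 with PBS in shNS cells. The 17 endothelial markers had 7.99 and 8.70 with glucagon and 8.43 with PBS in shKAT2B cells, against 7.93 and 8.23 with glucagon and 7.89 and 8.12 with PBS in shNS cells, and a median response difference of -0.09 within the second set. Both lists also differed between the hairpins within the second set, where the median level difference of the Kupffer cell list was 0.39 under glucagon and 0.43 in PBS and that of the endothelial list 0.24 and 0.33. With library set as a term, 6 of the 16 Kupffer cell and leukocyte markers were called higher in shKAT2B cells in each treatment, and of the 17 endothelial markers 5 were called higher under glucagon and 2 in PBS, with 0 called lower, beside 13.6% of all genes higher under glucagon and 7.64% in PBS. Hepatocyte identity genes had median level differences of -0.40 under glucagon and -0.33 in PBS, with 12 and 10 of 18 called lower in that fit, beside 13.7% and 10.8% of all genes. Under glucagon the stellate cell and fibroblast list had a median of 0.10, with 4 of 14 called higher and 1 lower. An array gives every marker a value, so none was at 0, and in such bulk samples fewer cells of a type and less RNA per cell cannot be told apart. The part of these markers in the responses of other genes was not tested. For Nr4a1, Efna1, Gde1, Slc7a2 and Mlph the response difference within the second set was within 0.10 of that over all libraries.

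Whether a smaller response was particular to the Kat2b hairpin was asked by setting the shKAT2B response against the shWDR5 response, which shares no library with it. Limma called 0 of 11479 genes lower (0.0%), with 20 genes at an unadjusted p below 0.05, and with library set as a term it also called 0 (0.0%), with 452 genes at an unadjusted p below 0.05, both fewer than the 574 of an even spread. For Nr4a1 the shWDR5 libraries had 11.76 and 11.57 with glucagon and 8.20 with PBS, and the shKAT2B response was lower by 0.86 on the log2 scale (95% interval -1.27 to -0.45, not adjusted for the number of genes). Efna1 stood between the other arms: its response was 0.53 in shKAT2B cells, 1.02 in shWDR5 cells and 1.66 in shNS cells, with a difference between the hairpins against Kat2b and Wdr5 of -0.49 (95% interval -0.88 to -0.09). For Nr4a2 that difference was -0.19, with an interval from -1.1 to 0.73. For Slc7a2 it was 0.11, with an interval from -0.21 to 0.43, and for Sik1 it was 0.01, with an interval from -0.35 to 0.36. Over the 27 raised genes the median response was 1.48 in shKAT2B cells, 1.42 in shWDR5 cells, on which the genes were chosen, and 1.66 in shNS cells. Within the second set these medians were 1.46, 1.5 and 1.86. For the 12 raised genes picked for a response smaller by at least 0.5 they were 1.53, 1.65 and 2.29 over all libraries. The shWDR5 response, which lay nearer to that of shKAT2B in these medians, was not tested against the shNS response.

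Among the 29 responsive genes, 25 had a promoter window in the RefSeq table. A half-site as defined above lay in the window of 7 of 12 genes that responded less in shKAT2B cells by at least 0.5 and of 7 of 12 that lay within 0.5, beside 23.0% of 27025 genes with a window. At least 2 half-sites lay in 4 of the 12 with the smaller response and in 1 of the 12 within 0.5, beside 5.7% of the genes with a window. Efna1, with the lowest response difference of the 29, had none in either of its windows, and Nr4a1, Nr4a2 and Nr4a3 had 4 each.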

How the data were processed

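RNA was measured on Affymetrix Mouse Gene arrays. The authors made the deposited intensity values, on a linear scale, with Affymetrix Expression Console 1.1.1 per the submitters' processing notes. The sources used here do not give the normalization. The log2 of every deposited intensity has 2 decimals, and log2 was taken with no pseudocount. Library medians were 282.1 to 298.2. The precision is limited by how few libraries there are, since arrays have no read depth. Of 26913 features, 17873 carried 1 gene symbol, 1128 several and 7912 none; 17815 matched a RefSeq gene and 0 symbols were updated. Each of 16401 genes was represented by its brightest feature on average (847 had several), and the lowest 30 percent by mean were left out, leaving 11479.

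Limma 3.58.1 in R 4.3.3 (lmFit, eBayes with trend) was fitted to the 6 groups of all 10 libraries with 4 residual degrees of freedom, so the lone shKAT2B PBS library borrows its spread from the other groups. Tests were two-sided with Benjamini-Hochberg adjustment over all genes tested, called below 0.05, and ± gives the model's standard error. Library sets are the sign of the first component of residuals, so they come from the data. The residuals are those of a fit of hairpin and treatment without their interaction, and they also hold any response difference. With library set as a term 3 residual degrees of freedom remain, and the test takes the sets as known. A simulation run with the fit drew noise independently for each library, without library sets, so it does not test the fit under that structure. Tables were made in pandas 2.3.3 and numpy 2.4.6 and figures in matplotlib 3.10.9, under Python 3.11.15.

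Members and the 26 lists were chosen with earlier results of these data known. Genes named are the known glucagon-responsive genes and Kat2b, those called or, where fewer than 5 were called in a direction, the 10 with the smallest p, up to 4 of each list (largest shWDR5 response or smallest p), and up to 20 of the responsive genes by response, p or a response difference under 0.25. Ppm1k, in a caption, was named after its values were seen. Alternatives were other pseudocounts, filters, scalings, feature rules and fits, replicates left out, and other choices of responsive genes.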

Additional observations from a re-analysis of the deposited data

Results flagged for a closer look

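With library set as a term, the test of the response difference itself passed for Nr4a1 (-1.04) and Efna1 (-1.16), both smaller in shKAT2B cells. The sets come from residuals of the same data that also hold the response difference, and the test takes them as known.

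For 10 other named genes every shKAT2B glucagon library lay on one side of the shKAT2B PBS library and every shNS glucagon library on the opposite side of both shNS PBS libraries, and this difference was not tested as a pattern. Across all genes tested 272 (2.37%) had such opposite directions, which rests in each case on the 1 shKAT2B PBS library. The 10 come from 106 genes, many of them picked for a small p of the response difference. That choice favours opposite directions, so their number is not to be read against the 2.37%. Higher with glucagon in shKAT2B cells and lower in shNS cells were Mlph (response difference 0.74), the zinc finger genes Zfp81 (0.52) and Zfp74 (0.47), Zc3hav1l (0.49), Bicra, a subunit of a BAF chromatin remodelling complex (0.48), Mtmr10, of the myotubularin family (0.32), Auts2, a Polycomb-associated gene (0.49), and Ajuba, a LIM protein of the YAP list (0.59). Lower with glucagon in shKAT2B cells and higher in shNS cells were the AP-1 subunit Fos (-0.39) and the nuclear receptor gene Ppara (-0.39). None of these 10 passed limma's adjusted p over all libraries.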

How the results depend on the processing

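The response difference had 0 called genes with the other pseudocounts, filters, scalings, feature rule, variance setting and 7-library fit, and with any 1 library left out; without the shKAT2B PBS library it could not be fitted, and without the shWDR5 PBS library the responsive genes could not be chosen. Library set as a term gave 2 calls for it, 73 for glucagon in shKAT2B (7 without the term), 224 for glucagon in shNS (22), 2111 for shKAT2B against shNS in PBS (58) and 3125 under glucagon (154). Letters A and B as a replicate block gave 1382, 3012, 224, 4253 and 3125. Deviations of same-lettered libraries correlated at 0.72 to 0.84 between the groups of 2 libraries, where the letters make the same split as the library sets. The labels do not say what the letters mark, so they were not taken as pairs. After the shNS response was added, the lone shKAT2B PBS library, lettered A, correlated across genes at 0.9958 with shKAT2B glucagon B and 0.9757 with A. The block by letter nevertheless places it with the first library set. With 1 library left out, calls ranged from 3 to 7 for glucagon in shKAT2B (3 without either glucagon library of shKAT2B or shNS, 4 without either of shWDR5) and from 9 to 22 in shNS (9 without either of its glucagon libraries, 13 without PBS A and 10 without PBS B). In PBS they ranged from 0 to 76 (0 without either shNS PBS or either shWDR5 glucagon library, 1 without either shNS glucagon library), and under glucagon from 0 to 156 (0 without either shNS library, 1 without shKAT2B B, 87 without shKAT2B A, 46 without either shNS PBS and 41 without either shWDR5 glucagon library). The responsive genes with a smaller response ranged from 10 of 78 (without shWDR5 glucagon B) to 18 of 34 (without shWDR5 glucagon A) and 18 of 29 (without shNS PBS A). The 7 libraries alone gave 4 calls for glucagon in shKAT2B, 0 in PBS and 38 under glucagon. In PBS, no filter gave 38 and no variance trend 14; under glucagon, quantile normalization gave 235 and median centring 261. Smaller responses numbered 8 of 21 with the lowest 50 percent left out, 26 of 128 at 0.58, 22 of 40 chosen in shNS, and, chosen after seeing the data, 25 of 62 raised and 4 of 34 lowered in the second set. For single genes over the settings, Nr4a1 kept -1.07 to -0.98 and Efna1 -1.22 to -1.05, while signs turned, with libraries left out, for Kat2b (-0.02 to 0.33), Crem (-0.15 to 0.07, and 0.06 with library set), Tat (-0.54 to 0.20) and Irs2 (-0.53 to 0.05); the cause was not tested.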

Other observations

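Several single genes outside the groups above had response differences below 0 that did not pass limma's adjusted p over all libraries. Lpin1, a phosphatidate phosphatase and transcriptional coactivator of the fasted liver, had log2 intensities of 11.11 and 11.27 with glucagon and 11.16 with PBS in shKAT2B cells, against 11.15 and 11.02 with glucagon and 10.68 and 10.57 with PBS in shNS cells. Its shKAT2B PBS library already lay in the range of the glucagon libraries, and the response difference was -0.43 ± 0.16. Socs3, a feedback inhibitor of cytokine receptors, had 8.18 and 8.54 with glucagon and 8.14 with PBS in shKAT2B cells, against 8.57 and 9.09 with glucagon and 7.95 and 7.77 with PBS in shNS cells. Its response was 0.22 in shKAT2B cells and 0.97 in shNS cells, with a response difference of -0.75 ± 0.36. Got1, an aspartate aminotransferase, had responses of 0.54 in shKAT2B cells and 0.76 in shNS cells, with a response difference of -0.22 ± 0.14.

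Among bile acid and transport genes, the sterol transporter gene Abcg5 had 7.79 and 7.80 with glucagon and 7.06 with PBS in shKAT2B cells, against 7.96 and 7.86 with glucagon and 7.67 and 7.51 with PBS in shNS cells. The PBS library of shKAT2B was the lowest of the 7, and the response difference was 0.42 ± 0.17. Its partner Abcg8 had a response difference of 0.30 ± 0.18. The receptor tyrosine kinase gene Epha4, a possible partner of ephrin ligands, had responses of 0.93 in shKAT2B cells and 0.38 in shNS cells over all libraries, with a response difference of 0.55 ± 0.52 that was 0.12 within the second library set.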
